A study of Mus musculus with 8 samples.

Results

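Hormone-sensing luminal cells of the nulliparous mammary gland were described here as they were split by the study, into a progenitor cluster (C2) and a differentiated cluster (C4), and C2 was set between C4 and the luminal progenitor cluster of the same mice (C6). Members were the cells that passed the quality filter and carried the study's cluster numbers C2 or C4 in the 2 nulliparous mice (NP1 and NP2). These were 2617 of the 25010 cells kept in the series, 434 in C2 and 2183 in C4. C6 added 688 cells of the same mice. The mice were C57BL/6N females 8 weeks old without a history of pregnancy and without a transgene or treatment, 1 mouse per library. Their mammary cells were sorted for EpCAM, an epithelial surface protein, after removal of cells with endothelial and blood markers, and sequenced by droplet capture (10x Chromium), with 26903844 UMIs in the count matrix of NP1 and 23887236 in that of NP2. A UMI marks 1 captured transcript. The other stages of the series (gestation, lactation and 11 days after natural weaning) enter here only through the 2 post-involution mice (PI1 and PI2), in which the study's clusters C1, C3 and C7 have the names that C2, C4 and C6 have in nulliparous mice.

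The luminal layer of the mammary gland holds cells that sense oestrogen, progesterone and prolactin through their receptors, and luminal progenitor cells that lack most of these receptors and give rise to milk-secreting cells in pregnancy. Hormone-sensing cells do not make milk themselves; they pass the hormonal signal to their neighbours with secreted factors such as amphiregulin, Wnt4 and RANKL. A hormone-sensing progenitor, as the study named C2, would carry the receptors together with transcripts of the progenitor state.

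UMIs were summed per mouse and cluster, so that mice and not cells were the replicates, and levels are CPM, meaning UMIs of that gene out of every 1000000 in the sum. The study clustered the cells on these same transcripts. Differences between clusters are for this reason descriptions of the clusters. A call past an adjusted p of 0.05 says only that a difference was large beside how far cluster differences varied between the 2 mice. With 2 pairs of sums an exact test of a single gene cannot go below p = 0.5, so the calls depend on edgeR's pooling of variance over genes.

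C2 barcodes carried more transcripts than either cluster beside them. The median C2 cell held 16399 UMIs in NP1 and 16877 in NP2. The median C4 cell held 10163 and 10309, and the median C6 cell 7767.5 and 6597. C2 was the deepest of the 3 clusters in both mice, and the number of genes detected followed, with a median of 4058 and 3959 in C2 against 2954 and 2796.5 in C4. The sum of the median of C4 and the median of C6 was 17930.5 in NP1 and 16906 in NP2, of which the C2 median was 0.915 and 0.998. By means, C2 held 19523 and 20478 UMIs per cell, and the sum of a mean C4 and a mean C6 cell was 21954 and 19601. Of the 265 C2 cells of NP1, 24 (9.06%) had no more UMIs than the median C4 cell, as had 8 of the 169 C2 cells of NP2 (4.73%). The median mitochondrial share was 0.793% and 0.880% in C2 and 0.789% and 0.914% in C4. C2 made up 12.2% of the kept cells of NP1 and 8.22% of those of NP2, C4 44.8% and 58.9%, and C6 17.2% and 15.4%. The study put 310 cells of the series into a cluster of doublets (droplets with 2 cells), and 0 of them came from nulliparous mice. Its rule considered only clusters rarer than its maximum doublet rate that closely resembled at least 2 other clusters of the sample. C2, at 12.2% and 8.22% of kept cells, was above that rate in both mice, so the rule could not flag it. No doublet caller was run here.

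**Figure D1:**
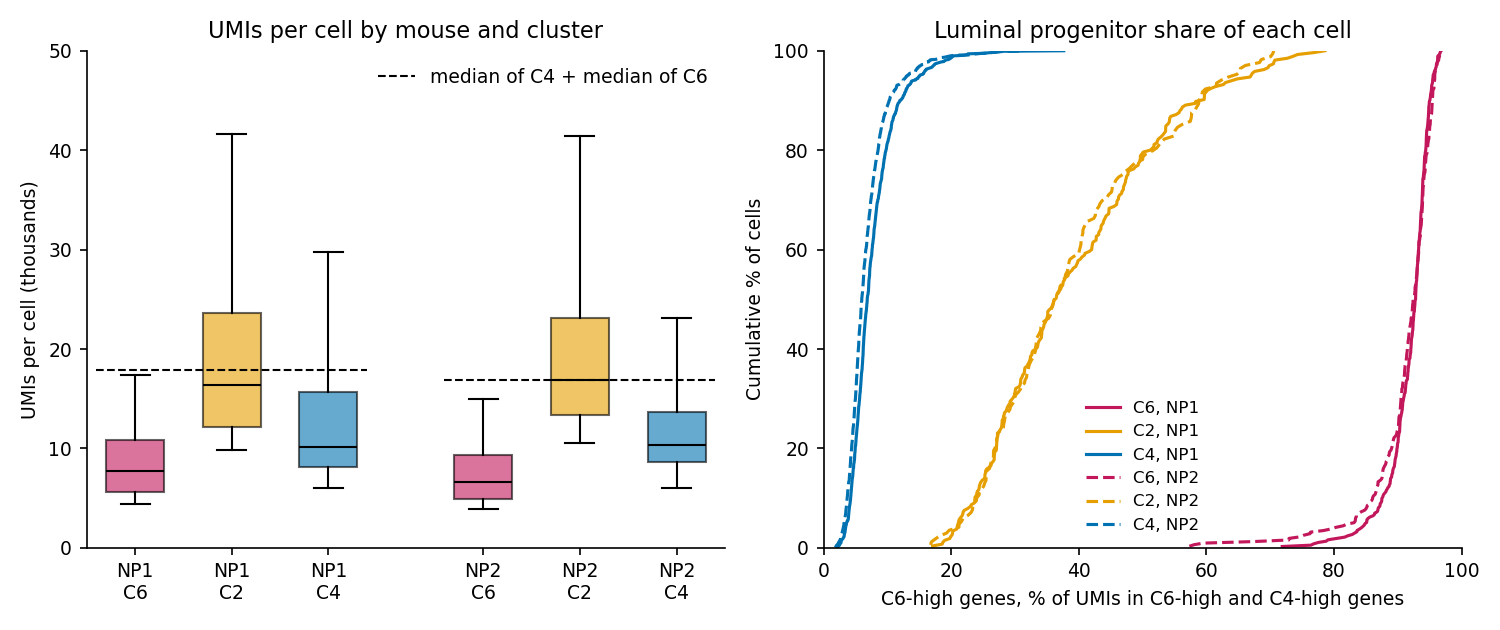
UMIs per cell (left; boxes span the quartiles, whiskers the 5th to 95th percentile, line the median) and the share of luminal progenitor transcripts in each cell (right; cumulative percent of cells), for C6, C2 and C4 in each NP mouse. The dashed lines on the left mark the median of C4 plus the median of C6, 17930.5 UMIs in NP1 and 16906 in NP2, and on the right C2 runs between C4 and C6 in both mice.

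Both sets of marker genes were present in C2. *Prlr*, the prolactin receptor (GRCm38, chr15:10177238-10349180, + strand), was at 1602 CPM in NP1 and 1578 CPM in NP2 in C2, at 2277 and 2225 CPM in C4 and at 80.6 and 90.4 CPM in C6. *Aldh1a3*, a retinaldehyde dehydrogenase of luminal progenitors (chr7:66390890-66427517, − strand), was at 737 and 552 CPM in C2, at 39.4 and 15.03 CPM in C4 and at 2035 and 1759 CPM in C6. Neither gene overlapped between clusters. Single markers of other cell types were low: *Ptprc*, which defines blood cells, was at 0.387 and 0 CPM in C2, the endothelial gene *Pecam1* at 2.32 and 0.289 CPM, the fibroblast gene *Col1a1* at 3.48 and 2.02 CPM and the basal keratin *Krt5* at 9.08 and 6.65 CPM. Summed over their lists, C2 had 11.4 and 4.91 CPM of immune, 20.9 and 15.3 of fibroblast and 327 and 178 of basal genes. Endothelial genes summed to 20.7 and 23.4 CPM in C2, beside 18.6 and 13.3 CPM in basal cells (C12). Of these, *Eng* was at least 4-fold higher in C4 than in C6. In C6 of NP2 alone, *Col1a1* reached 29.9 CPM and the related fibroblast gene *Dcn* 58.1 CPM, against 0 and 3.92 CPM in NP1; the part of this in the results was not tested.

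Individual C2 barcodes, counted here as cells, held transcripts of both kinds. Whether such a barcode held a lone cell or a doublet was not tested. After every cell was thinned to 4000 UMIs, 202 of 265 C2 cells of NP1 (76.2%, exact 95% interval 70.6 to 81.2%) and 118 of 169 of NP2 (69.8%, 62.3 to 76.6%) had a UMI of both *Prlr* and *Aldh1a3*. In C4 it was 11.3% of 971 cells and 6.16% of 1201, and in C6 20.4% of 372 and 22.7% of 295. In basal cells (C12), which should lack both, it was 5.36% of 504 cells and 3.79% of 264. In NP2, 11 C4 cells, 21 C6 cells and 18 C12 cells had too few UMIs and were left out. Alone, *Aldh1a3* had a UMI in 76.2% and 71.0% of thinned C2 cells and in 90.1% and 85.8% of C6 cells; without thinning the C2 shares were 92.5% and 91.7%. *Prlr* had one in 98.9% and 98.8% of thinned C2 cells and in 22.6% and 26.1% of C6 cells, near the 22.6% and 26.9% of basal cells. The shares of the other pairs tried also ran from C2 over C6 to C4, with *Ptn*, a secreted growth factor, and *Wfdc18*, a secreted protein of luminal progenitors, found together in 91.3% and 91.1% of C2 cells, 20.5% and 15.6% of C4 cells and 41.1% and 41.4% of C6 cells. These intervals cover counting error only.

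From C2 to C4, 3453 of 11021 genes tested were called (31.3%), 1599 of them higher in C4 (14.5%) and 1854 lower (16.8%). The rises were small and the falls large. Of the genes called, 57 were at least 2-fold higher in C4 and 734 at least 2-fold lower, and at a 4-fold difference it was 1 against 395. The sums of C2 and C4 did not overlap between mice in 6395 genes (58%). Higher calls were 46.3% of all calls, but 35.4% where sums were scaled by their totals alone, which moved the median of all genes from 0.02 to -0.03 (log2). Without the mouse as a term, which pairs the clusters of 1 mouse, 689 genes were called higher and 1292 lower. Where a gene named as higher or lower in C4 lost its call with DESeq2, without TMM factors, without the mouse as a term, among cells of 5000 to 15000 UMIs or with at most 150 cells per sum, this is said beside its group.

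The largest falls from C2 to C4 were of genes that were higher still in the luminal progenitor cluster. The 12 largest falls by the naming rule ran from -5.05 to -4.32 (log2), and each of the 12 was higher in C6 than in C2 in both mice. *Car2*, a carbonic anhydrase, was at 59.5 and 74.0 CPM in C2 and at 2.29 and 1.59 CPM in C4 (log2 -5.05, SE 0.17, adjusted p 1.22e-16); C6 had 241 and 253 CPM. *Trf*, which encodes the iron carrier transferrin (chr9:103204001-103230444, − strand), was at 376 and 346 CPM in C2, 19.7 and 9.58 CPM in C4, and 1171 CPM in C6 of both mice. *Csn3*, the milk protein κ-casein, was at 187 and 332 CPM in C2, 13.1 and 9.93 CPM in C4 and 743 and 1413 CPM in C6. C2 and C4 do not overlap for these genes because the naming rule required it. In both mice C2 lay between C4 and C6 for each of the 3. *Aldh1a3*, *Wfdc18*, *Muc15* (a membrane mucin), *Slc28a3* (a nucleoside transporter), *Ntng1* (a netrin relative), *Gpc6* (a glypican), *Tgfb2* (a growth factor of the TGF-β family), *Egln3* (a prolyl hydroxylase that senses oxygen) and 3110079O15Rik made up the rest, with *Aldh1a3* at -4.58 (SE 0.16).

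Among 20 luminal progenitor genes, 19 were lower in C4 than in C2, 0 were higher and 1 (*Itgb3*) was not called. Over all genes tested, 16.8% were called lower and 14.5% higher. The median log2 of the list was -2.91, beside 0.02 over all genes tested. *Kit*, a receptor tyrosine kinase, was at 29.2 and 29.5 CPM in C2 and at 2.45 and 0.689 CPM in C4. *Elf5*, which drives alveolar differentiation, was at 22.8 and 25.1 CPM against 3.08 and 2.55 CPM (log2 -3.05). *Fosl1* and *Creb5*, transcription factors that the study followed along its trajectory, differed less, by -1.74 and -0.61, and *Creb5* was not called without the mouse as a term. *Hmga1*, an architectural chromatin protein, differed by -0.86 and *Ehf*, an ETS factor, by -1.02. The 3 milk protein genes that could be tested were also lower in C4, with a median of -3.45, which was -3.78 in NP1 alone and -2.02 in NP2 alone.

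Signalling molecules of the progenitor cells fell with them. Of 14 chemokines and cytokines 11 were lower and 2 higher in C4, with a median of -1.37. *Csf3*, the granulocyte growth factor, was at 296 and 297 CPM in C2 and at 22.7 and 18.2 CPM in C4, and the neutrophil attractants *Cxcl1* and *Cxcl2* differed by -2.90 and -3.75. The 2 that were higher were *Cxcl15* (0.69) and the alarmin *Il33* (1.27). Of 9 genes of the EGF family 5 were lower, led by the receptors *Egfr* (-3.84) and *Erbb4* (-3.51) and the ligand *Nrg1* (-3.03), and 2 ligands were higher, *Areg* (0.67) and *Btc* (0.52). Of 9 Notch genes 4 were lower, among them *Notch1* (-0.83) and the target *Hey1* (-2.04), and the ligand *Jag1* was higher (0.59). *Cldn1*, a tight junction protein, fell by 4.06 on the log2 scale, whereas *Cldn3* and *Cldn4*, which were expressed throughout, differed by 0.15 and 0.14 and were not called. In the list of cell junction genes, 5 of 12 were lower and 2 higher, beside 16.8% and 14.5% of all genes tested. Retinoid genes were split, with *Aldh1a3* and *Crabp2* among the genes lower and *Rdh10*, *Dhrs3* and *Rbp4* higher in C4. Of these signalling and retinoid genes, *Il33*, *Btc*, *Hey1*, *Jag1*, *Rdh10*, *Dhrs3* and *Rbp4* were not called by DESeq2, and *Jag1*, *Rdh10* and *Dhrs3* were not called among cells of 5000 to 15000 UMIs. *Rbp4* also lost its call without TMM factors or the mouse as a term, and *Hey1* with at most 150 cells.

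Receptors for the reproductive hormones rose by less than 1.5-fold. *Pgr*, the progesterone receptor, was at 110 and 105 CPM in C2 and at 159 and 141 CPM in C4 (log2 0.53, SE 0.09, adjusted p 6.03e-05). *Esr1*, the oestrogen receptor α, was at 64.0 and 70.5 CPM in C2 and 80.3 and 91.0 CPM in C4 (0.40, SE 0.09), and *Prlr* differed by 0.55 (SE 0.07). All 3 were higher in C4 in both mice without overlap, and in C6 all 3 were low, with *Esr1* at 5.13 and 6.64 CPM. These 3 were the only rises called among 13 hormone receptors tested, beside 14.5% of all genes tested called higher and 16.8% called lower. The other calls were falls, of the IGF-1 receptor *Igf1r* (-3.24), the thyroid hormone receptor *Thrb* (-3.18), the glucocorticoid receptor *Nr3c1* (-1.63), the growth hormone receptor *Ghr* (-0.82) and the vitamin D receptor *Vdr* (-0.79). Among cells of 5000 to 15000 UMIs *Esr1*, *Ghr* and *Vdr* were not called. DESeq2 did not call *Esr1* and *Ghr*, *Vdr* lost its call without the mouse as a term, and *Ghr* and *Vdr* with at most 150 cells. The receptors for insulin, retinoic acid and thyroid hormone α (*Insr*, *Rara*, *Rarg*, *Thra*) were among those not called. *Calcr* and *Rarb* had too few UMIs to test, with *Calcr* at 0 in C2 of both mice.

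Of 18 transcription factors of hormone-sensing cells, 8 were called higher in C4, 1 lower and 9 neither. Over all genes tested, 14.5% were called higher and 16.8% lower. The median of the list was 0.20, beside 0.02 over all genes tested, and was 0.10 among cells of 5000 to 15000 UMIs. *Cited1*, a transcriptional co-activator of the oestrogen receptor, was at 376 and 258 CPM in C2 and at 729 and 497 CPM in C4 (log2 1.00, SE 0.08, adjusted p 7.56e-10). *Spdef* followed with 0.92, *Msx2* with 0.85 and *Tox2* with 0.56. The pioneer factor *Foxa1* was at 90.1 and 85.8 CPM in C2 and 109 and 106 CPM in C4, a difference of 0.34. *Gata3* (0.34), *Tfap2b* (0.31) and *Bhlhe41* (0.22, adjusted p 0.0496) were called along with *Foxa1*; among cells of 5000 to 15000 UMIs *Bhlhe41* was at -0.040. None of these 4 was called by DESeq2, nor were *Foxa1*, *Gata3* and *Tfap2b* among cells of that depth. Without the mouse as a term *Gata3*, *Tfap2b* and *Bhlhe41* lost their calls, as *Tfap2b* and *Bhlhe41* did without TMM factors and *Tfap2b* with at most 150 cells. *Runx1* (0.09), *Tbx3* (0.19), *Trps1* (-0.10) and *Xbp1* (-0.04) were not called. The exception was *Tfap2c*, lower in C4 by -2.60 and highest in C6, at 73.3 and 109 CPM.

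Of the paracrine ligands, *Ptn* was at 3459 and 2952 CPM in C2 and at 6684 and 5269 CPM in C4 (log2 0.95). *Areg* (amphiregulin, chr5:91139599-91148432, + strand) was at 2052 and 2306 CPM in C2 and 3216 and 3479 CPM in C4. *Wnt5a* (0.44) and *Wnt7b* (0.31) were also higher in C4. *Wnt4*, a target of progesterone, was at 104 and 118 CPM in C2 and 114 and 133 CPM in C4 and was not called (0.21, SE 0.11, adjusted p 0.165), nor was the calcitonin gene *Calca* (0.15). *Gdf15*, *Fgf1*, *Cxcl12* and *Cxcl14* were lower. DESeq2 called neither *Wnt5a* and *Wnt7b* nor *Gdf15*, *Cxcl12* and *Cxcl14*. Among cells of 5000 to 15000 UMIs *Wnt7b*, *Cxcl12* and *Cxcl14* lost their calls, and with at most 150 cells *Wnt5a* and *Wnt7b* did. *Wnt7b* and *Cxcl14* were not called without the mouse as a term, nor *Wnt7b* without TMM factors, nor *Cxcl14* without a filter on low counts. *Tnfsf11*, which encodes RANKL, was too low to test, at 1.93 and 0.867 CPM in C2 and 2.61 and 1.65 CPM in C4.

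The 12 largest rises by the naming rule were those of *Upk3a* (a uroplakin, log2 1.91, SE 0.22), *Ido1* (a tryptophan-degrading enzyme, 1.30), *Mgp* (matrix Gla protein, 1.28), Gm17416 (1.21), *Sbp* (a spermine-binding protein, 1.16), *Arg2* (an arginase, 1.04), *Fxyd2* (a subunit of the sodium pump, 1.02), *Ly6a* (the surface antigen Sca-1, 1.02), *Cited1*, *Sult2b1* (a sulfotransferase, 0.98), *Wfdc2* (0.97) and *Upk2* (0.97). *Mgp* was at 43.9 and 49.7 CPM in C2 and 102 and 116 CPM in C4. *Ido1* was at 70.4 and 38.7 CPM against 164 and 94.6 CPM. *Ly6a* was higher in C2, at 488 and 349 CPM, than in C6, at 49.2 and 45.2 CPM. *Upk3a* differed between the mice, with 29.6 CPM in C2 of NP1 and 12.4 CPM in C2 of NP2 against 68.9 and 97.9 CPM in C4, and was not called by DESeq2.

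The counts of the wider gene groups stand beside 14.5% of all genes tested called higher in C4 and 16.8% called lower. Of 82 genes of the respiratory chain tested, 68 were higher in C4 and 1 was lower (*Ndufaf4*, -0.70), with a median of 0.39, and the 3 highest (*Cox6b2*, *Ndufaf7*, *Atp5s*) were at no more than 17.0 CPM in C4 and were not called by DESeq2. *Cox6b2* and *Atp5s* also lost their calls among cells of 5000 to 15000 UMIs, *Ndufaf7* and *Atp5s* with at most 150 cells, and *Atp5s* without TMM factors or the mouse as a term. *Ndufs8*, a subunit of complex I, was at 102 and 77.2 CPM in C2 and 150 and 113 CPM in C4 (0.60). Few ribosomal protein genes were called, with 5 higher and 3 lower of 77 and a median of 0.02, which became -0.03 without TMM factors. Genes of ribosome biogenesis were lower in C4 in 11 of 20, with a median of -0.31. Antigen presentation and interferon genes were higher in 6 of 12 and lower in 1, led by *B2m* and *Psmb9*, both at 0.65. Glycolysis genes were higher in 5 of 13 and lower in 2, the phosphofructokinase *Pfkp* (not called among cells of 5000 to 15000 UMIs) and the glucose transporter *Slc2a1*. Cell division genes were lower in 5 of 15 and higher in 1, with a median of -0.42 that became 0.092 among cells of 5000 to 15000 UMIs and was -0.18 in NP1 alone, and *Mki67* was at 0.966 and 8.67 CPM in C2 and 0.632 and 1.999 CPM in C4, so that most of its UMIs came from NP2. Immediate early and stress genes were lower in 7 of 17, *Egr1* by -1.47, and higher in 2, *Atf3* (0.39) and *Socs3* (0.38), while *Fos*, *Jun* and *Junb* were not called. Neither *Atf3* nor *Socs3* was called without the mouse as a term; *Atf3* lost its call among cells of 5000 to 15000 UMIs, and *Socs3* with DESeq2 and without TMM factors. Of 9 keratins 4 were higher, *Krt7*, *Krt19*, *Krt15* and *Krt6a*, 1 was lower, *Krt17* (-0.29), and *Krt8* and *Krt18* were not called. DESeq2 did not call *Krt15*, *Krt6a* and *Krt17*, and *Krt6a* and *Krt17* lost their calls without the mouse as a term, as *Krt6a* did with at most 150 cells. Among cells of 5000 to 15000 UMIs *Krt15* was not called and *Krt17* was at 0.087. Of 16 basal genes 3 were lower and 1 higher, and of the 2 immune, 2 endothelial and 5 fibroblast markers tested 1 was called, the endothelial *Eng* (0.53), which lost its call with DESeq2, without the mouse as a term, among cells of 5000 to 15000 UMIs and with at most 150 cells.

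**Figure D2:**
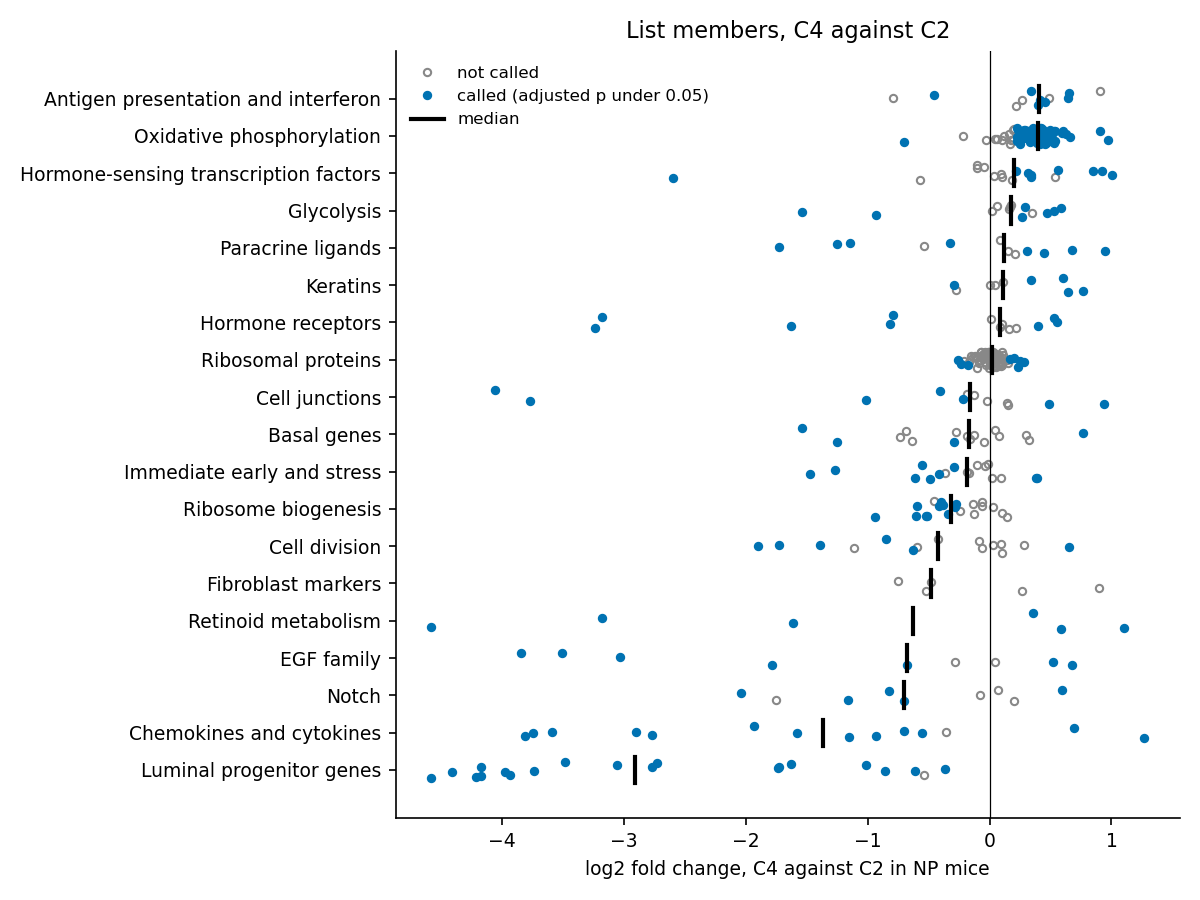
log2 fold change of C4 against C2 in NP mice for the tested members of each list with at least 5 of them, 1 point per gene, filled where called. Luminal progenitor genes reach below -4, with a median of -2.91, while the medians of the lists above 0 end at 0.41 and 0.39, for antigen presentation and oxidative phosphorylation.

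Genes with a peak in C2 were sought as genes whose level in C2 was above both C4 and C6, since no mixture of the levels of C4 and C6 exceeds the higher of them. Of 11021 genes, 0 were called above both (0%) and 0 below both (0%) by edgeR, with the larger of the 2 one-sided p-values taken for each gene and adjusted over all genes. At an unadjusted p under 0.05, 112 genes (1.02%) were above both and 148 (1.34%) below both. DESeq2 called 0 in either direction, with 10 and 38 genes at an unadjusted p under 0.05. By fitted level, 71.6% of genes lay between C4 and C6, 13.4% above and 15.1% below both. With basal cells (C12) as a further reference, 0 of 11478 genes were called (0%) and 63 had an unadjusted p under 0.05.

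For each gene the fit also gave a limit on the size of such a peak. These limits rest on edgeR's pooled variance and were not adjusted over genes. On simulated counts the test missed most peaks of 2-fold, so the absence of calls over all genes tested does not by itself exclude peaks of that size. The limits come from the same fit and are given only for genes of at least 20 CPM, where the median SE of C4 against C2 was 0.11 (log2). Whether the spread of the simulated counts matched that of these genes was not tested. For 6226 genes of at least 20 CPM in 1 of the 3 clusters, the 95% upper limit of the excess of C2 over the higher of C4 and C6 was under 2-fold in 6226, and under 1.5-fold in 6207 (99.7%). In the other direction the limit was under 2-fold in 6225. The largest fitted excess was that of the defensin *Defb50* (0.68 on the log2 scale, named after its values were seen), and it rested on NP1 alone, with 51.6 CPM in C2, 31.2 CPM in C4 and 0.302 CPM in C6, against 0.289, 0.0689 and 0 CPM in NP2.

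The place of C2 between the levels of C6 and C4 was then measured gene by gene. For genes that differed at least 4-fold between C4 and C6 in both mice, with at least 20 CPM in the higher, the position was (C2 − C6)/(C4 − C6) in CPM, which is 0 at the level of C6 and 1 at that of C4. For the 259 genes higher in C4 the median position was 0.629 in NP1 (quartiles 0.554 and 0.731) and 0.670 in NP2 (0.576 and 0.754). For the 337 genes higher in C6 it was 0.655 (0.609 and 0.699) and 0.667 (0.616 and 0.712). In each mouse the medians of the 2 directions differed by less than the quartiles within either direction. On TMM-scaled levels they were 0.600 and 0.649 for genes higher in C4 and 0.663 and 0.662 for genes higher in C6. Among genes higher in C6, 0 had a position above 1 or below 0 in either mouse, and among those higher in C4 it was 1 gene above 1 in NP1 and 5 in NP2. A gene absent from C6 would differ by 0.61 (log2) between C2 and C4 at the mean of these 4 medians, 0.655. Fitted differences were 0.53 to 0.67 for *Pgr*, *Prlr* and *Areg*. They were smaller for *Esr1* (0.40), *Foxa1* (0.34) and *Wnt4* (0.21), and larger for *Spdef* (0.92), *Ptn* (0.95) and *Cited1* (1.00).

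**Figure D3:**
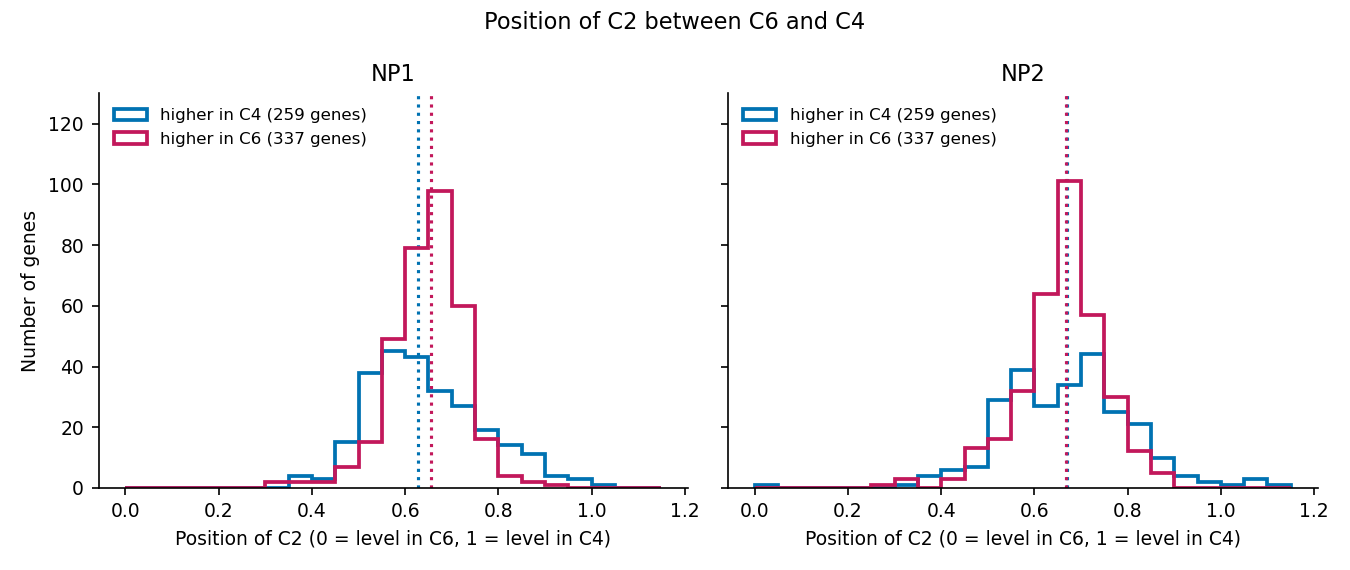
Number of genes by the position of C2, where 0 is the level in C6 and 1 the level in C4, for genes higher in C4 (259) and higher in C6 (337) in each NP mouse; dotted lines mark the medians. The medians lie between 0.629 and 0.670, and genes higher in C4 spread more widely than genes higher in C6.

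A mixture of 0.655 of C4 and 0.345 of C6 came within 1.5-fold of the C2 level in 99.5% of the 6226 genes in NP1 and 99.1% in NP2 (with 1 CPM added). A mixture of like levels in C4 and C6 is the same at any weight, so these shares say little about the weight. Only 259 genes higher in C4 and 337 higher in C6 differed at least 4-fold in both mice. The SD over genes of the log2 difference between C2 and this mixture was 0.19 in NP1 and 0.21 in NP2. Between the 2 mice, the SD over genes was 0.25 in C2, 0.24 in C4 and 0.30 in C6. Between C4 and C2 within a mouse it was 0.61 and 0.65. The weight was chosen on these genes, so the match is a description. Off by over 1.5-fold the same way in both mice were 5 genes, all lower in C2 than in the mixture: *Mgp*, *Ido1* and *Upk3a*, high in C4, and *Eepd1* and the neutrophil-associated calgranulin *S100a8*, high in C6.

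**Figure D4:**
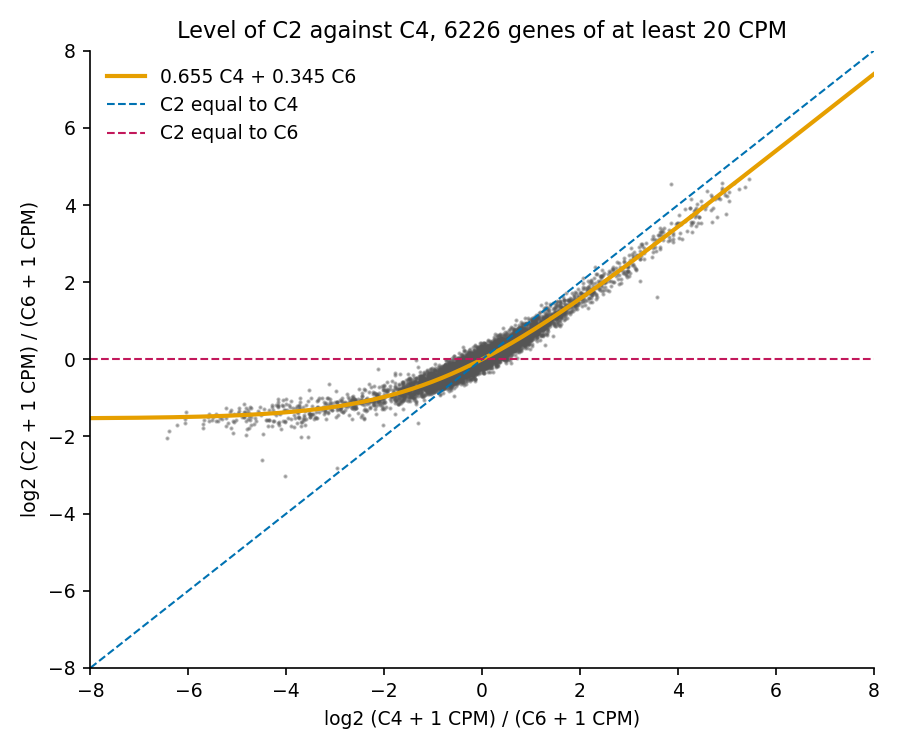
Level of C2 relative to C6 against the level of C4 relative to C6 (log2 of mean CPM of the 2 NP mice, 1 CPM added), 1 point per gene for 6226 genes. The curve is the mixture of 0.655 C4 and 0.345 C6, and the points follow it on both sides.

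The weight of the mixture can be set beside the UMI yield. Of the UMIs of a mean C4 and a mean C6 cell together, the C4 cell held a share of 0.594 in NP1 and 0.611 in NP2 (0.567 and 0.610 by medians), beside the C4 weight of 0.629 to 0.670 read from gene levels, or 0.600 to 0.663 on TMM-scaled levels. Whether C2 barcodes held 1 cell or 2 was not tested. Within C2 the mixture varied from cell to cell. Of the UMIs of a cell in the 596 genes of the position analysis, the genes higher in C6 took a median of 36.4% in C2 of NP1 and 36.2% in NP2, against 6.85% and 5.99% in C4 and 92.8% and 92.5% in C6. In C2 the 5th and 95th percentiles were 21.2% and 67.0% in NP1 and 21.7% and 64.2% in NP2. Each of the 265 and 169 C2 cells fell above the 95th percentile of C4 and below the 5th percentile of C6 of its mouse. This interval also held 49 of 971 C4 cells and 19 of 372 C6 cells in NP1, and 61 of 1212 and 16 of 316 in NP2. Since clusters were cut on these transcripts, the gap between C2 and its neighbours is set in part by the clustering.

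Individual genes departed from the common place, and among genes higher in C4 they did so in both mice. Across these 259 genes, the positions in NP1 and NP2 were correlated with Pearson's r = 0.52 and Spearman's rho = 0.52, and across the 337 genes higher in C6 with r = 0.12 and rho = 0.16. Genes are not independent replicates, and the C2, C4 and C6 levels of a mouse enter all its positions. The genes named in this and the next paragraph for their place were picked after their values were seen.

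Some genes stood near the level of C4. *Wnt4* stood at 0.89 in NP1 and 0.88 in NP2, *Nuak1*, a kinase, at 1.02 and 1.14, and *Prex1*, a Rac exchange factor, at 0.99 and 1.07. *Fgfr2*, a receptor for fibroblast growth factors, was at 152 and 175 CPM in C2 and 190 and 215 CPM in C4 (0.78 and 0.80). *Esr1* was at 0.78 and 0.76, *Foxa1* at 0.79 and 0.77, the hexokinase *Hk2* at 0.83 and 0.80 and *Calca* at 0.86 and 1.07. *Pgr* (0.68 and 0.74) and *Prlr* (0.69 and 0.70) lay near the middle, and *Areg* at 0.62 and 0.65. Others stood farther from C4 than the common place: *Mgp* at 0.36 and 0.37, *Ido1* at 0.42 and 0.39, *Cited1* at 0.50 in both mice, *Wfdc2* at 0.51 and 0.50, *Ly6a* at 0.51 and 0.45, *Spdef* at 0.52 and 0.50, *Nupr1* at 0.53 and 0.52 and *Ptn* at 0.51 and 0.55. *Upk3a* was at 0.42 in NP1 and 0.02 in NP2. For *Esr1*, *Prlr* and *Cited1*, hormone-sensing genes of the same cluster, the position of C2 differed between genes by more than it did between the mice. This did not hold for *Pgr*, which differed more between the mice than it did from *Prlr* in either mouse.

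**Figure D5:**
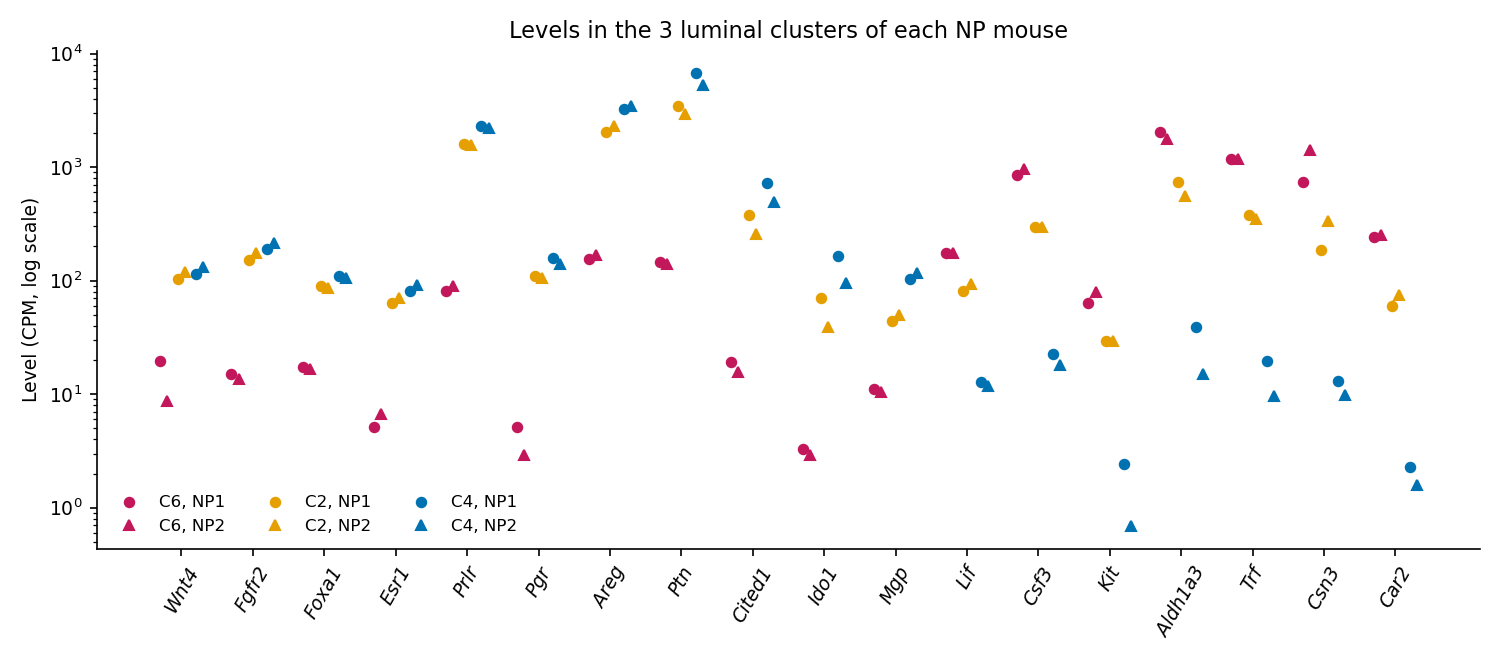
Levels (CPM, log scale) of 18 genes in C6, C2 and C4 of each NP mouse, circles NP1 and triangles NP2. *Wnt4*, *Fgfr2* and *Foxa1* in C2 lie next to C4, *Ido1* and *Mgp* lie lower, and the progenitor genes from *Lif* to *Car2* in C2 lie next to C6 on this scale.

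Genes higher in C6 were spread less. Most retained in C2 were *Timp3*, a metalloproteinase inhibitor, at 0.37 and 0.46, the growth factor *Pdgfb* (0.37 and 0.52), the nuclear factor *Nfix* (0.53 and 0.46), the endothelin *Edn1* (0.56 and 0.48), the cytokine *Lif* (0.57 and 0.50) and *Igf1r* (0.55 and 0.58). *Lif* was at 81.6 and 93.9 CPM in C2, 174 and 176 CPM in C6 and 12.8 and 11.9 CPM in C4. Nearer to C4 were *Csn3* (0.76 and 0.77), *Crabp2*, a carrier of retinoic acid (0.74 in both), *Cd14*, the lipopolysaccharide co-receptor (0.73 and 0.76), and *S100a8* (0.93 and 0.85). *Aldh1a3* (0.65 and 0.69), *Trf* (0.69 and 0.71) and *Wfdc18* (0.66 and 0.72) were at the common place.

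The sequences before the start sites of *Foxa1* and *Lif* are shown, as a gene whose level in C2 was near that in C4 and one whose level was nearer to C6 than most. They are the 250 bases before the annotated start in RefSeq on GRCm38.p6, 5′ to 3′ on the strand of the gene, with capitals for a match to the forkhead motif (TGTTTAC) or the AP-1 motif (TGANTCA) on either strand. Of 27025 promoters of this length, 3.09% held the forkhead and 6.87% the AP-1 letters. The *Foxa1* sequence is chr12:57546112-57546361 (− strand) and that of *Lif* chr11:4257318-4257567 (+ strand). A match is a description and not a binding site. Of the genes of the position analysis, 177 of 259 and 243 of 337 had an entry in the table, under the 80% needed to compare shares between the sets, so no such comparison was made.
Foxa1: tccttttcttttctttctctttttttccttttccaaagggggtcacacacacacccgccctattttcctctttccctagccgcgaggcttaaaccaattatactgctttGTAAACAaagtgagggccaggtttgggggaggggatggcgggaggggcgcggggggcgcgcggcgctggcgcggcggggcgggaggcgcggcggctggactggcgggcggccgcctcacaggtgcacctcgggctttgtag
Lif: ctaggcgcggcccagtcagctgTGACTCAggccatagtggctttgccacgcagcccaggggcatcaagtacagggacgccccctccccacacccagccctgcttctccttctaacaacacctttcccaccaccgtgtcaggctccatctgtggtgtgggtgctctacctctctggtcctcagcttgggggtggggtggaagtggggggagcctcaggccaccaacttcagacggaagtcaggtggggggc

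The post-involution gland gave the same measurement in other mice. By vaginal smears the study classed NP1, NP2 and PI2 as in oestrus and PI1 as in dioestrus. The part of the cycle stage in the results was not tested. C1 held 107 and 385 cells in PI1 and PI2, C3 412 and 2487 and C7 824 and 1101. Of 11471 genes, 0 were called above both C3 and C7 (0%) and 0 below both (0%) by edgeR, with 72 and 71 at an unadjusted p under 0.05, and DESeq2 called 0 above both. Of these genes 74.7% lay between C7 and C3 by fitted level. From C1 to C3, 16.2% of genes were called higher and 22.3% lower. The position of C1 between C7 and C3 had a median of 0.459 in PI1 and 0.475 in PI2 for 351 genes higher in C3, and of 0.465 and 0.487 for 360 genes higher in C7. All 4 medians were nearer to the luminal progenitor level than in nulliparous mice. The mean C1 cell held 17658 and 13057 UMIs, and the sum of a mean C3 and a mean C7 cell was 17065 and 13484, of which C3 gave a share of 0.474 and 0.463. By medians C1 held 16314 and 11580 UMIs beside sums of 13662.5 and 11217, and the share of C3 was 0.525 and 0.503. Mean positions of genes were correlated between the stages. Across 190 genes higher in both C4 and C3, the mean positions in NP and PI mice were correlated with r = 0.58 (rho = 0.57), and across 225 genes higher in both C6 and C7 with r = 0.44 (rho = 0.43). Between single NP mice, r was 0.52 over 259 genes higher in C4 and 0.12 over 337 genes higher in C6. These values are not directly comparable, since the gene sets differ and the former use means of 2 mice. *Wnt4* was again near the differentiated level, at 0.74 and 0.85 in PI mice, and *Ido1* far from it, at 0.31 and 0.34.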

How the data were processed

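The authors deposited UMI counts as whole numbers for each gene in each barcode (27998 genes, no normalisation; STAR and mm10 are named in the submitters' processing notes) and an annotation that gives each cell's cluster, quality flags and the mitochondrial share as a fraction. In 320 of 9407 cells used the UMI total differed from the annotated one, and 56 symbols were shared by several IDs and kept apart. Of the series' barcodes, 791 were shared between libraries and 0 of these were kept. Groups came from the sample labels.

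Counts of kept cells were summed per mouse and cluster. The 6 sums of C2, C4 and C6 in NP mice were fitted with edgeR 4.0.16 (R 4.3.3; TMM, filterByExpr with a minimum count of 10 and total of 15, quasi-likelihood test, cluster and mouse as terms, Benjamini-Hochberg at 0.05; residual df 2, prior df 20.8). The mouse is a block because the clusters compared come from the same mouse. PI mice were fitted likewise. DESeq2 1.42.0 was an alternative. Positions used CPM without TMM factors. Shares of cells with a UMI were taken after thinning to 4000 UMIs. Python 3.11.15 was used for the rest. On simulated counts the test of a peak in C2 missed most peaks of 2-fold and found most of 4-fold.

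Members, lists and tests were chosen with earlier results of these data known. Genes were named by a rule: the 12 largest rises and the 12 largest falls among genes called, of at least 20 CPM in C2 or C4 and without overlap between the mice of the clusters, the called genes above or below both neighbours, the genes of the lists, and those the study followed.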

Additional observations from a re-analysis of the deposited data

Results flagged for a closer look

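For 3 genes called between C2 and C4 in nulliparous mice, both post-involution mice moved the other way from C1 to C3; the difference between the stages was not tested. *Gata3* differed by 0.34 in the fit of nulliparous mice (0.35 in NP1 and 0.32 in NP2 alone), and by -0.20 in PI1 and -0.15 in PI2. *Rdh10*, a retinol dehydrogenase, differed by 0.36 (0.32 and 0.40), and by -0.19 and -0.21 in PI1 and PI2. Gm17416 differed by 1.21 (1.37 and 0.95), and by -0.90 and -1.65 in PI1 and PI2, where it had too few UMIs to enter the fit.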

How the results depend on the processing

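No gene was called above both C4 and C6 under any of the 7 alternatives run, nor with C12 added under its 4. Below both, cells of 5000 to 15000 UMIs gave 2 calls (*Prdx1* and *Cd9*), and in PI mice the fit without a filter gave 2 calls above both (*Fabp4* and *Cldn5*, both known as endothelial genes). The median position in genes higher in C6 was 0.675 among cells of 5000 to 15000 UMIs, and the other alternatives moved no median position by more than the difference between the mice; single mice gave 0.629 to 0.670 for genes higher in C4 and 0.655 to 0.667 for genes higher in C6. With 2 mice no test remains when 1 is left out, so those values are descriptions.

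Fewer genes were called between C2 and C4 by DESeq2 (439 higher, 969 lower), without the replicate block (689 higher), among cells of 5000 to 15000 UMIs (747 and 1019), with at most 150 cells per sum (948 and 1182) and at a log2 threshold of 1 with FDR 0.01 (glmTreat, 2 and 361). The last 3 rest on fewer cells or a larger fold by construction; for the others the cause was not tested. Of 102 called genes named in the text, 30 were not called by DESeq2, 18 without the block, 6 without TMM factors and 68 by glmTreat; 19 of the 97 with a value lost their calls among cells of 5000 to 15000 UMIs and 10 of 98 with at most 150 cells. *Bhlhe41* turned to -0.040 and *Krt17* to 0.087 among cells of 5000 to 15000 UMIs.

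List medians moved by more than the SD between the mice as follows. Without TMM factors they were 0.029 for hormone receptors, 0.064 for paracrine ligands, -0.23 for basal genes, -0.37 for ribosome biogenesis, -0.23 for immediate early genes, 0.35 for antigen presentation, -0.21 for junctions and -0.032 for ribosomal proteins. Without the block hormone receptors were at 0.079. Among cells of 5000 to 15000 UMIs they were 0.038 for hormone receptors, 0.10 for transcription factors, 0.22 for paracrine ligands, -3.20 for luminal progenitor genes, -0.056 for basal genes, -0.11 for immune markers, 0.092 for cell division, -0.34 for ribosome biogenesis, 0.34 for glycolysis, -0.13 for Notch, -1.41 for retinoid genes, 0.41 for antigen presentation, -0.19 for junctions and 0.068 for ribosomal proteins. With at most 150 cells they were 0.16 for hormone receptors, 0.30 for transcription factors, -0.15 for basal genes, -0.35 for ribosome biogenesis, -0.24 for immediate early genes, -0.39 for Notch, -1.52 for retinoid genes, 0.33 for antigen presentation, -0.14 for junctions and 0.00216 for ribosomal proteins. In single mice they ran from 0.047 to 0.050 for hormone receptors, -0.00225 to 0.067 for paracrine ligands, 0.043 to 0.40 for keratins, -0.26 to -0.23 for basal genes, -3.78 to -2.02 for milk proteins, -0.48 to -0.18 for cell division, -0.33 to -0.31 for ribosome biogenesis, -0.24 to -0.23 for immediate early genes, 0.45 to 0.45 for antigen presentation and -0.18 to -0.16 for junctions. Medians of endothelial and fibroblast markers changed sign between the mice, at -0.65 and 1.13 and at -1.04 and 0.67.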
